A study of Mus musculus with 6 samples.

Results

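The 10 genes examined encode HSF1, the transcription factor that switches on heat shock genes, and 9 heat shock proteins of the cytosol and mitochondria: Hspa1a, Hspa1b, Hspa8, Hsph1, Dnajb1, Hspb1, Hsp90aa1, Hspd1 and Hspe1. They were taken by gene symbol from the 45777 genes of the deposited table, and all 10 had reads in every library. The RNA came from whole liver of male C57BL/6 mice on a high-fat diet (HFD), with 1 library per mouse. LT mice were Fpn fl/fl littermates without Cre (n = 3), and Fpn-LKO mice were Fpn fl/fl with Alb-Cre, which removes the iron exporter ferroportin, encoded by Slc40a1, from albumin-expressing hepatocytes (n = 3). Both groups therefore carried the floxed allele, which was made in a 129S strain and backcrossed to C57BL/6J, and other liver cells of Fpn-LKO mice kept the gene. In the study's methods, HFD feeding (60 kcal% fat) started at 8 weeks of age, and the time on the diet is not stated there for these livers. Each library is named by its group and replicate number, such as LT 1 or Fpn-LKO 3.

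Heat shock proteins are chaperones, which bind unfolded or newly made proteins and help them fold, refold or be degraded. In unstressed cells HSF1 is held inactive by chaperones. When unfolded proteins draw those chaperones away, HSF1 forms trimers and binds heat shock elements, inverted repeats of the letters GAA upstream of its target genes. Hspa1a, Hspa1b, Dnajb1 and Hspb1 are classic inducible targets, whereas Hspa8 and, in mitochondria, Hspd1 and Hspe1 are also made at all times. The comparison asks whether this group of genes differed between the livers of the genotypes under the HFD.

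The stretches just upstream of the annotated starts are shown first because they hold the letters that HSF1 recognises, and because those of Hspa1a and Hspa1b show how alike this pair is. RefSeq promoter sequences of build GRCm38.p6 were given for 7 of the 10 genes. Capitals mark matches to GAANNTTC or TTCNNGAA, where N is any base. Both motifs read the same on either strand, and they overlap where 3 or more units stand in a row. All stretches are written 5′ to 3′ on the strand of the gene.
Hspa1b, chr17:34959239-34959388, minus strand: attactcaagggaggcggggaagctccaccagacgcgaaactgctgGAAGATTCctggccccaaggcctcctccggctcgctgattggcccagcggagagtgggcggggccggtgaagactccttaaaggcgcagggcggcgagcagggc
Hspa1a, chr17:34972157-34972306, minus strand: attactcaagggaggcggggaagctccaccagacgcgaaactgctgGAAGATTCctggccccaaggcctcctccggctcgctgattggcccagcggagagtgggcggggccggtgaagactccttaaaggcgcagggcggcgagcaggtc
Hspb1, chr5:135887769-135887918, plus strand: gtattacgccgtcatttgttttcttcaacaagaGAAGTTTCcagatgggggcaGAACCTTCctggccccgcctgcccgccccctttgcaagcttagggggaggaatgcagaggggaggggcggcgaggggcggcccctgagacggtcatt
Hspe1, chr1:55088053-55088082, plus strand: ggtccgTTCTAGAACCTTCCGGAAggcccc
Hsph1, chr5:149636351-149636380, minus strand: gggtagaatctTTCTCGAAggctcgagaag
Dnajb1, chr8:83608025-83608174, plus strand: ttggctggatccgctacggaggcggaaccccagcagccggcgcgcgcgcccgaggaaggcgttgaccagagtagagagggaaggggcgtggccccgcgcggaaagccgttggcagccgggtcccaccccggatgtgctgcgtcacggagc

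Within the 250 bases before the start, 6 of these 7 genes held at least 1 such match, as did 12.8% of all 32851 promoter windows. A gene with more than 1 window was counted if any of them matched, whereas the 12.8% is a share of single windows. The stretches of Hspa1a and Hspa1b differed at 1 of the 150 positions shown, and both carried GAAGATTC from 104 to 97 bases before the start. Hspb1 held 2 separate matches, and the stretch of Dnajb1 held none. The match of Hspe1 is a run of 18 bases. It lies between the start of Hspe1 and an annotated start of Hspd1, 216 bases apart. These genes are transcribed away from each other, so the same bases stand upstream of both of these starts. The full span of Hspd1 given below reaches past the start of Hspe1 and therefore includes the run. The run contains GAANNTTCNNGAA and its reverse complement TTCNNGAANNTTC, which occurred in 0.466% of all windows. For Hspe1 and Hsph1 only 30 bases are shown. A match of letters is a description and not a measured site of binding.

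The 10 genes lie on 7 chromosomes of GRCm38, the NCBI name for mm10. The HSP70 pair are neighbours on the minus strand at chr17:34956429-34959238 (Hspa1b) and chr17:34969359-34972156 (Hspa1a). The mitochondrial pair Hspd1 (chr1:55077833-55088243) and Hspe1 (chr1:55088148-55091317) lie head to head with overlapping ends. Hspb1 (chr5:135887919-135889563) and Hsph1 (chr5:149616843-149636498) share chromosome 5. The others are Dnajb1 at chr8:83608175-83612653, Hspa8 at chr9:40801276-40805202, Hsp90aa1 at chr12:110691036-110696395 and Hsf1 at chr15:76477362-76501155.

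Total counts on genes lay between 43086184 and 47778683 per library, and the lowest count of any of the 10 genes was 121 reads, for Hspa1a in LT 2. Slc40a1 had 154, 180 and 126 CPM (counts scaled to the TMM-adjusted library size) in LT 1 to 3 and 143, 143 and 176 CPM in Fpn-LKO 1 to 3, a log2 fold change of 0.0073 (standard error 0.16), so the counts of the targeted gene did not separate the genotypes. The gene-level counts do not show which exons were read. Genotype names below are therefore those of the labels, and Fpn-LKO stands for the libraries labelled so. Hepatocyte markers summed to 64020 to 78990 CPM in LT and 67130 to 75260 CPM in Fpn-LKO. Of the 6 markers of muscle and fat, Acta1, Ckm, Adipoq and Plin1 were at 0 reads in all 6 libraries. Myh4 had 2 reads in total. Car3 had reads in every library, at 1016 to 1669 CPM in LT and 1047 to 1705 CPM in Fpn-LKO. Kupffer cell and macrophage markers summed to 287 to 387 CPM in LT and 239 to 509.6 CPM in Fpn-LKO, with the highest sum in Fpn-LKO 3. Red blood cell markers summed to 351 to 941 CPM in LT and 473.5 to 1243 CPM in Fpn-LKO. At an unadjusted p under 0.05 in the same test, 1 of these 5 (Alas2) and 1 of 10 stellate and endothelial markers (Lyve1) were higher. Of 4 lymphocyte and neutrophil markers tested, 1 (Cd4) was lower. Of all 17274 genes tested, 2.62% were higher and 378 lower at that threshold. In bulk liver RNA, a change in the share of a cell type and a change in RNA per cell cannot be told apart. RNAs without a poly(A) tail (7SL, 7SK and related RNAs) summed to 73200 to 92030 CPM in LT, 100400 CPM in Fpn-LKO 1, and 32630 and 46240 CPM in Fpn-LKO 2 and 3. Their part in the results was not tested. With these 5 RNAs left out before scaling, the log2 fold change of Hsp90aa1, described below, stayed at 0.73. This setting takes out only the reads of these RNAs, so it cannot show whether the libraries differed in other ways.

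Per transcript length, Hspa8, Hspd1, Hspe1 and Hsp90aa1 stood far above the other 6 genes. Hspa8 had the highest mean, 578 FPKM (fragments scaled to transcript length and library size, as deposited) over the 6 libraries, with a range of 499 to 636 FPKM that did not overlap the next gene. Hspd1 followed with a mean of 171 FPKM, Hspe1 with 139 FPKM and Hsp90aa1 with 127 FPKM. The ranges of Hspd1 and Hspe1 overlapped, although Hspd1 was above Hspe1 in 6 of 6 libraries, and Hspe1 was above Hsp90aa1 in 4 of 6. A wide gap separated these 4 genes from Hsph1 (14.6 FPKM), Hspa1b (10.8 FPKM), Hspb1 (9.78 FPKM) and Dnajb1 (7.83 FPKM), whose ranges overlapped. Hspa1a had a mean of 3.55 FPKM and Hsf1 the lowest mean, 1.55 FPKM. Dnajb1 was above Hspa1a in 6 of 6 libraries although their ranges overlapped, whereas the other neighbours from Hsph1 down kept their order in only 3 or 4 of 6. The range of Hspa1a alone ran from 0.808 to 8.13 FPKM.

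**Figure D1:**
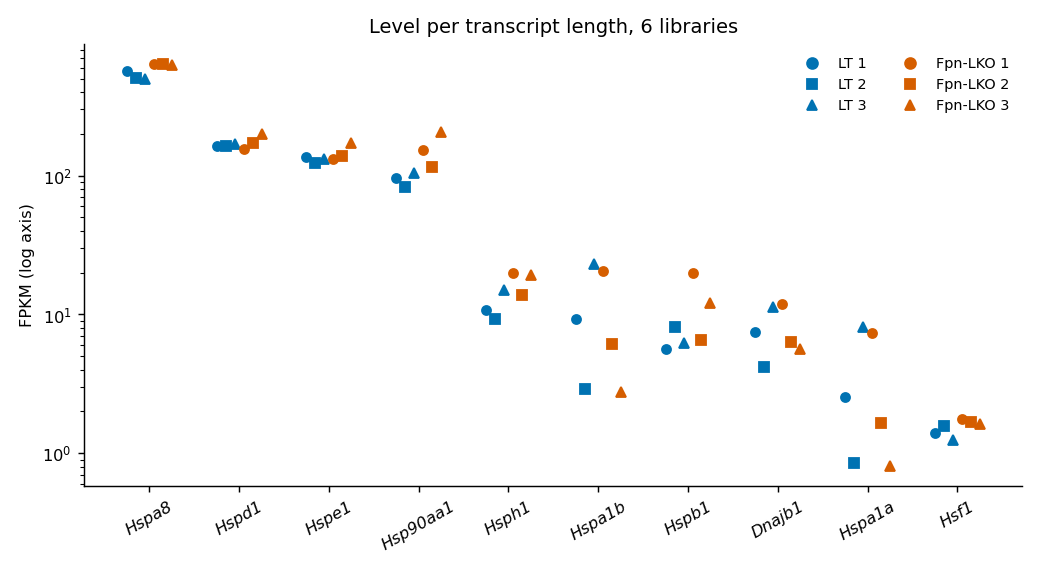
FPKM of the 10 genes in each of the 6 libraries, on a log axis, ordered by their mean; colours mark LT (blue) and Fpn-LKO (orange) and symbols the replicate number. Hspa8 lies above all others, at 499 to 636 FPKM, and Hspa1a and Hspa1b show the widest spread between libraries.

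No gene of the 10 passed the threshold of 0.05 for adjusted p in edgeR's quasi-likelihood test, which called 4 of the 17274 genes tested, or 0.0232% (Gm10036, Nnmt, Nudc-ps1 and Rpl29, named after their values were seen). The lowest adjusted p among the 10 was 0.982. At an unadjusted p under 0.05, 3 of the 10 were higher in the libraries labelled Fpn-LKO (Hsp90aa1, Hsph1 and Hspb1), beside 2.62% of all genes tested, and none was lower. DESeq2's Wald test also called none of the 10 after adjustment and placed 4 under an unadjusted p of 0.05. In 3 of the 10 (Hsp90aa1, Hsf1 and Hspa8) every Fpn-LKO library lay above every LT library, beside 5.25% of all genes tested, and in none did every one lie below. The log2 fold change was above 0 for 8 of the 10, with a median of 0.21, whereas the median over all genes tested was -0.004. For 1 gene in 3 mice against 3, the smallest p of an exact two-sided permutation test is 0.1.

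**Figure D2:**
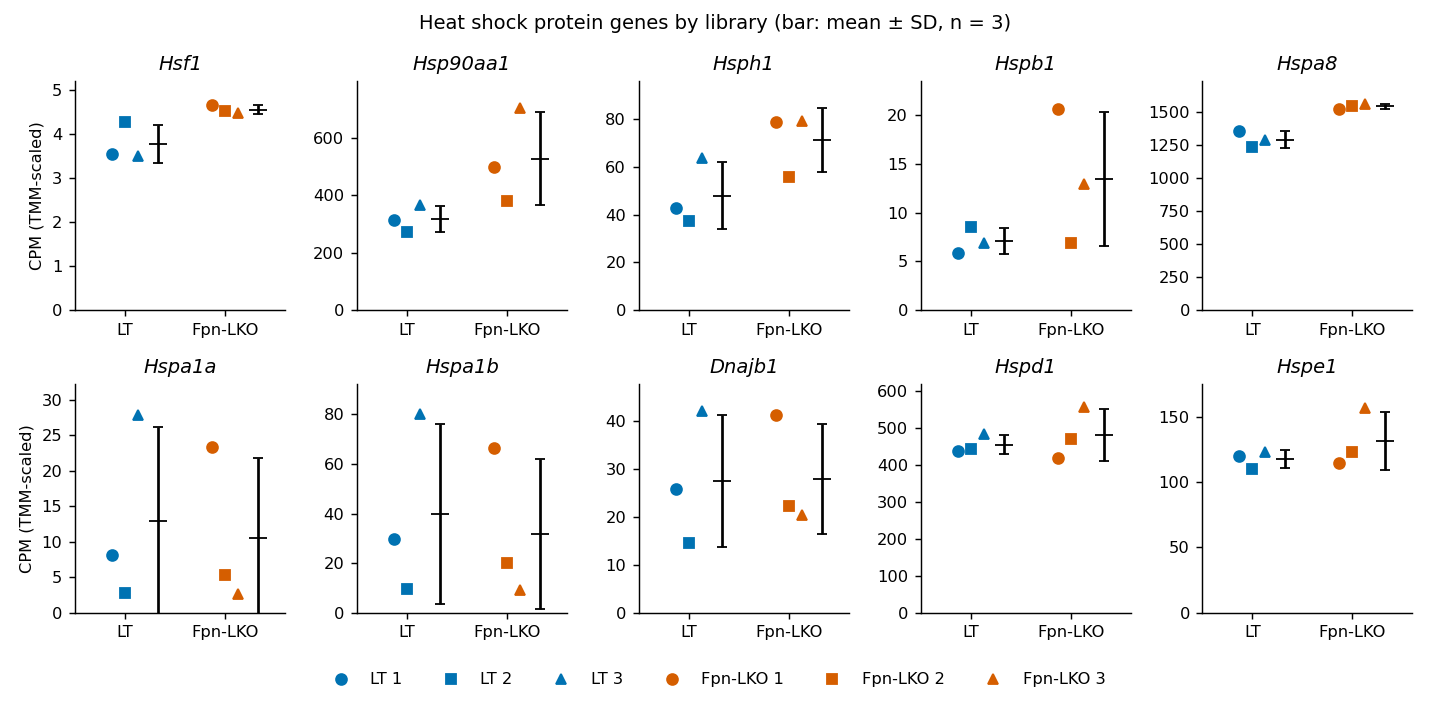
CPM of each of the 10 genes by genotype, with 1 symbol per mouse and the mean ± SD (n = 3) beside it; each panel has its own axis from 0, where the lower SD bars of Hspa1a end. Hsp90aa1, Hsf1 and Hspa8 separate the groups, while Hspa1a, Hspa1b and Dnajb1 are highest in LT 3 and Fpn-LKO 1.

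Hsp90aa1, the inducible cytosolic HSP90, which completes the folding of kinases and steroid receptors, showed the clearest difference. It had 315, 272 and 365 CPM in LT 1 to 3 and 499, 381 and 704 CPM in Fpn-LKO 1 to 3. The groups did not overlap, but the highest LT library and the lowest Fpn-LKO library were close, and Fpn-LKO 3 stood above the others. The LT mean was 317 ± 46.2 CPM and the Fpn-LKO mean 528 ± 163 CPM (SD, n = 3 per genotype), with a log2 fold change of 0.73 (standard error 0.24). Its unadjusted p was 0.0157 and its adjusted p was 0.982 in edgeR's quasi-likelihood test. Without Fpn-LKO 3 the log2 fold change was 0.47, and without LT 2 the unadjusted p rose to 0.0573. Its pseudogene Gm12346, which matched 2255 bases at 99.5% identity, held 0.0849 to 0.0958 reads per read of Hsp90aa1 in the 6 libraries, and adding its near-identical copies left the log2 fold change at 0.74.

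Hsph1 encodes HSP110, which exchanges the nucleotide on HSP70 and helps it take aggregates apart. It had 42.6, 37.1 and 63.8 CPM in LT 1 to 3 and 78.7, 55.5 and 79.1 CPM in Fpn-LKO 1 to 3. Fpn-LKO 2 lay below LT 3, so the groups overlapped, as they did in FPKM (15.0 in LT 3 and 13.8 in Fpn-LKO 2). On the deposited TPM values the groups did not overlap (21.1 in LT 3 and 23.9 in Fpn-LKO 2). On that scale 69.1% of the 11464 genes fitted were higher in Fpn-LKO, against 49.4% of genes in the count fit. The log2 fold change was 0.57 (standard error 0.23), with an unadjusted p of 0.0398 and an adjusted p of 0.982 in edgeR's quasi-likelihood test. No near-identical gene was found for Hsph1 among the annotated transcripts.

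Hspb1 encodes the small heat shock protein HSP25, the mouse counterpart of human HSP27, which holds unfolded proteins without using ATP. It had 5.85, 8.50 and 6.89 CPM in LT 1 to 3 and 20.6, 6.90 and 13.0 CPM in Fpn-LKO 1 to 3. Fpn-LKO 2 stood at the level of the LT libraries, and the mean of Fpn-LKO rested on Fpn-LKO 1 and 3. The log2 fold change of 0.93 (standard error 0.37) was the highest of the 10, with an unadjusted p of 0.0375 and an adjusted p of 0.982 in edgeR's quasi-likelihood test. It was 0.49 without Fpn-LKO 1 and 1.25 without Fpn-LKO 2. The pseudogene Hsp25-ps1 matched Hspb1 over 441 bases at 99.8% identity, and with its reads added the unadjusted p was 0.0367.

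The count of 3 under an unadjusted p of 0.05 depended on single mice. It was 1 without LT 1, without LT 2, without Fpn-LKO 1 or without Fpn-LKO 3, it was 2 without LT 3, and it stayed at 3 without Fpn-LKO 2. Hsp90aa1 was under 0.05 in 5 of these 6 fits, and Hsph1 and Hspb1 in 2 of 6 each. With all mice kept, Hsp90aa1 and Hsph1 were under 0.05 in 11 of 11 other settings and Hspb1 in 10 of 11. Some of these settings hardly touch these genes and are not separate checks. For Hsph1, summing Hspa1a and Hspa1b, leaving out 5 RNAs or adding pseudogenes gave p of 0.0398 to 0.0399 in edgeR's quasi-likelihood test.

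Hsf1 itself had 3.54, 4.27 and 3.50 CPM in LT 1 to 3 and 4.65, 4.52 and 4.46 CPM in Fpn-LKO 1 to 3. All 3 Fpn-LKO libraries were close to each other and above the LT libraries, by a small margin over LT 2. The log2 fold change was 0.27 (standard error 0.18) with an unadjusted p of 0.184 in edgeR's quasi-likelihood test. HSF1 is controlled mainly at the level of its protein, which was not measured in these data.

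Hspa8, the constitutive cytosolic HSP70 (HSC70), had 1362, 1235 and 1288 CPM in LT 1 to 3 and 1529, 1551 and 1562 CPM in Fpn-LKO 1 to 3. The groups did not overlap in CPM, and the log2 fold change was 0.26 (standard error 0.14, unadjusted p = 0.11, edgeR's quasi-likelihood test). On the deposited TPM values the groups overlapped, with 910 TPM in LT 1 and 899 TPM in Fpn-LKO 1. DESeq2 gave Hspa8 an unadjusted p of 0.022 and an adjusted p of 0.732. The pseudogene Gm15459 matched Hspa8 over 1941 bases at 99.7% identity and received 238283 reads over the 6 libraries, beside 392397 for Hspa8 itself.

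The share that went to the pseudogene was not the same in all libraries. Gm15459 had 989.9, 451 and 929.5 CPM in LT 1 to 3 and 1102, 559.7 and 1127 CPM in Fpn-LKO 1 to 3. It held 0.721 to 0.727 reads per read of Hspa8 in LT 1, LT 3, Fpn-LKO 1 and Fpn-LKO 3, but 0.365 in LT 2 and 0.361 in Fpn-LKO 2. A second copy, Gm8355, held 0.0589 to 0.0636 reads per read of Hspa8 in the same 4 libraries and 0.0357 and 0.0365 in LT 2 and Fpn-LKO 2. The 2 libraries with the low share belonged to different genotypes.

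With the reads of the 11 near-identical copies in the table added to those of Hspa8, the values were 2463, 1745 and 2315 CPM in LT 1 to 3 and 2742, 2186 and 2805 CPM in Fpn-LKO 1 to 3. Fpn-LKO 2 then lay below LT 1 and LT 3, so the groups overlapped. The log2 fold change was 0.25 (standard error 0.21) with an unadjusted p of 0.268 in edgeR's quasi-likelihood test. The size of the difference thus stayed alike while the separation of the groups was lost.

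**Figure D3:**
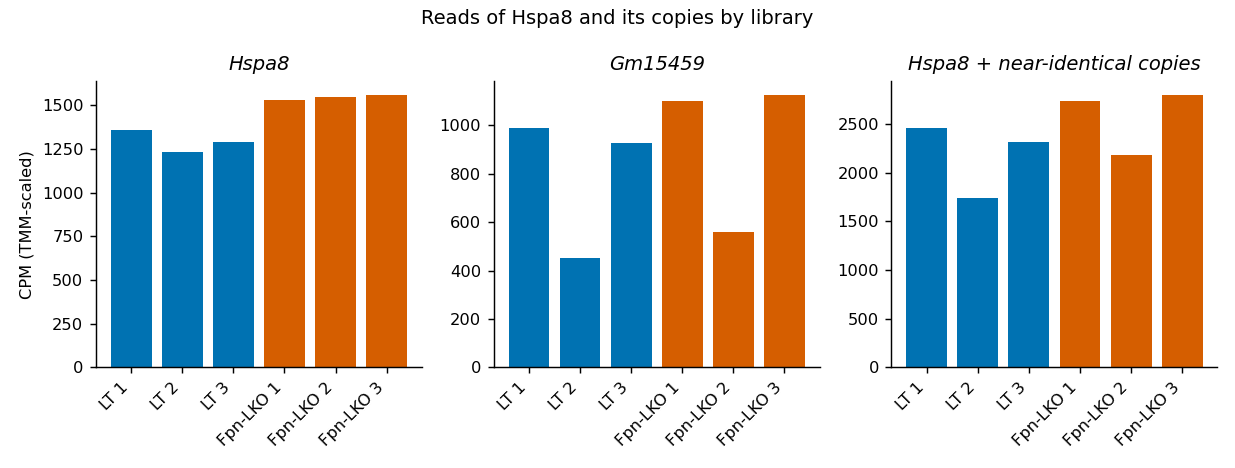
CPM of Hspa8 (left), its pseudogene Gm15459 (middle) and Hspa8 with all near-identical copies added (right) in LT (blue) and Fpn-LKO (orange) libraries; each panel has its own axis from 0. Gm15459 is at 451 and 559.7 CPM in LT 2 and Fpn-LKO 2 and at 929.5 to 1127 CPM in the other 4 libraries, and the groups overlap once the copies are added.

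Hspa1a and Hspa1b, which encode the stress-inducible cytosolic HSP70, did not follow the genotypes. Hspa1b had 29.9, 9.49 and 80.0 CPM in LT 1 to 3 and 66.3, 20.1 and 9.25 CPM in Fpn-LKO 1 to 3. Hspa1a had 8.09, 2.79 and 27.9 CPM in LT 1 to 3 and 23.4, 5.35 and 2.69 CPM in Fpn-LKO 1 to 3. In both genes LT 3 and Fpn-LKO 1 were high, LT 1 and Fpn-LKO 2 were intermediate, and LT 2 and Fpn-LKO 3 were low, so that each genotype held 1 high, 1 intermediate and 1 low mouse. The highest library was 8.66 times the lowest for Hspa1b and 10.35 times for Hspa1a, the widest ranges of the 10 genes.

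The log2 fold changes were -0.32 (standard error 0.86, unadjusted p = 0.721) for Hspa1b and -0.30 (standard error 0.95, unadjusted p = 0.762) for Hspa1a in edgeR's quasi-likelihood test. With errors of this size, a difference as large as that of Hsp90aa1 was not detectable for this pair. Leaving out 1 mouse moved the log2 fold change of Hspa1b between -1.44 and 0.69, and that of Hspa1a between -1.68 and 0.94. The transcripts of the pair matched over 2201 bases at 99.2% identity, and 47.1% of the 100-base stretches of the Hspa1a transcript, the length of the reads, occurred unchanged in that of Hspa1b. Reads of the pair can therefore be divided between them by the aligner. Hspa1b had 2.83 to 3.75 reads per read of Hspa1a in the 6 libraries, and summing the pair into 1 gene left the ranking of the mice as it was. Gm20481, a gene model on the opposite strand, overlaps 2225 bases of Hspa1a, and whether the counting used the strand is not given in the sources used here.

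Dnajb1 encodes HSP40, the J-domain protein that delivers clients to HSP70. It had 25.8, 14.5 and 41.9 CPM in LT 1 to 3 and 41.1, 22.2 and 20.3 CPM in Fpn-LKO 1 to 3. LT 3 and Fpn-LKO 1 were again the highest libraries, and the genotype means were nearly equal. The log2 fold change was 0.023 (standard error 0.41, unadjusted p = 0.957, edgeR's quasi-likelihood test). Over the 6 libraries, Pearson's r of log2 CPM was 0.996 between Hspa1a and Hspa1b, which share reads, and 0.959 between Hspa1b and Dnajb1, given as a description of 6 points from 2 genotypes. Hsp90aa1 did not share this order of mice, with r = -0.072 against Hspa1b, whereas r was 0.897 between Hsp90aa1 and Hsph1.

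Hspd1 (HSP60) and Hspe1 (HSP10) form the chaperonin of the mitochondrial matrix, a chamber and its lid. Hspd1 had 437, 442 and 484 CPM in LT 1 to 3 and 418, 469 and 556 CPM in Fpn-LKO 1 to 3. Hspe1 had 119.9, 109.8 and 123 CPM in LT 1 to 3 and 115, 123 and 157 CPM in Fpn-LKO 1 to 3. For both genes Fpn-LKO 3 was the highest library, and the other 2 Fpn-LKO libraries lay within or near the LT range. The log2 fold changes were 0.08 (standard error 0.15, unadjusted p = 0.589) and 0.16 (standard error 0.14, unadjusted p = 0.295) in edgeR's quasi-likelihood test. Without Fpn-LKO 3 they were -0.03 and 0.02. The 2 genes, which share the element printed above, kept 3.54 to 4.03 reads of Hspd1 per read of Hspe1, and their r over the 6 libraries was 0.921.

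**Figure D4:**
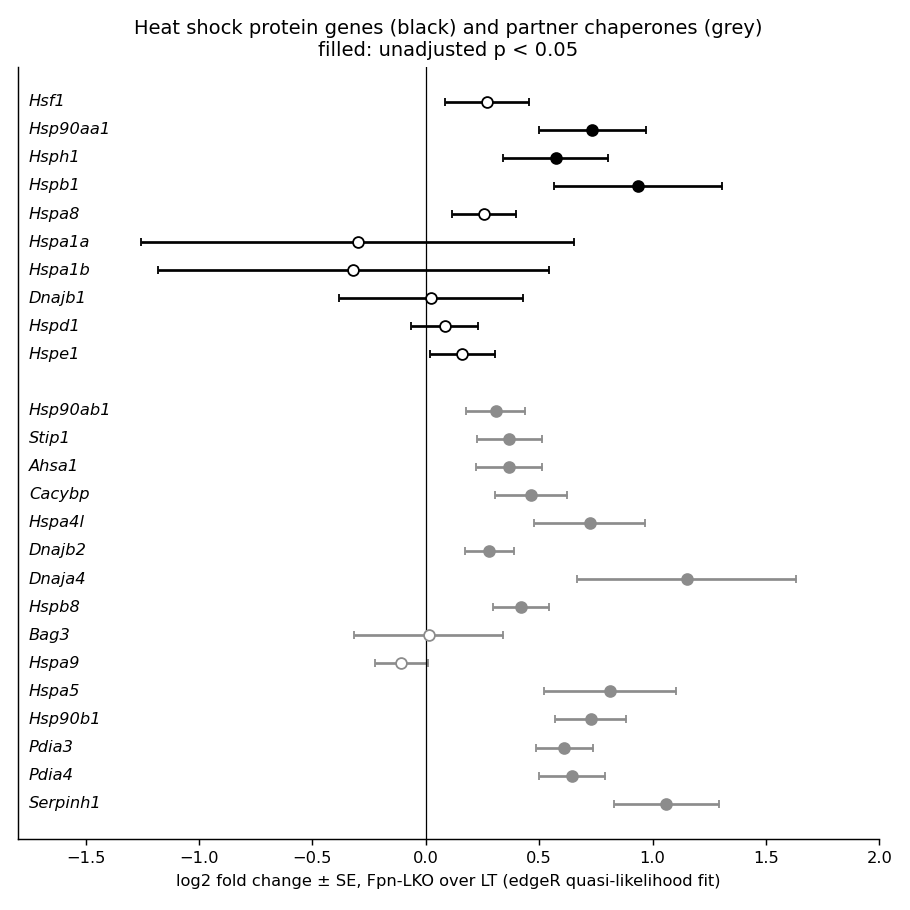
Log2 fold change ± standard error, Fpn-LKO over LT, from edgeR's quasi-likelihood fit, for the 10 genes (black) and 15 partner chaperones (grey); filled points have an unadjusted p under 0.05. Hspa1a and Hspa1b have the widest errors and lie below 0 with error bars that cross it, while Hsp90aa1, Hsph1 and Hspb1 lie above 0.

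The partners of these proteins were examined as 9 lists of 88 genes, of which 84 were tested. None passed the adjusted threshold in edgeR's quasi-likelihood test, 14 were higher at an unadjusted p under 0.05, beside 2.62% of all genes tested, and none was lower. Every Fpn-LKO library was above every LT library for 21 of the 84, beside 5.25% of all genes tested, and below for 2, beside 923 of the 17274 genes tested. The median log2 fold change was 0.13. ER chaperones contributed 6 of the 14 genes and 8 of the 21, and the cytosolic partners of HSP90 contributed 4 of each.

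Among HSP90 and its co-chaperones, 4 of 12 genes were higher at an unadjusted p under 0.05, beside 2.62% of all genes tested. The list's median log2 fold change was 0.21. Hsp90ab1, the constitutive cytosolic HSP90, had 394, 371 and 396 CPM in LT 1 to 3 and 504, 422 and 512 CPM in Fpn-LKO 1 to 3, a log2 fold change of 0.31 (standard error 0.13). Cacybp, which binds the SIAH1 ubiquitin ligase and has a domain found in HSP90 co-chaperones, had a log2 fold change of 0.46 (standard error 0.16). Ahsa1, which speeds the ATPase of HSP90, had one of 0.37 (standard error 0.14), and so had Stip1, which links HSP70 to HSP90. The groups did not overlap for Hsp90ab1, Cacybp and Ahsa1, whereas Fpn-LKO 2 lay just below LT 3 for Stip1. Their unadjusted p-values lay between 0.0210 and 0.0479, and the adjusted p was 0.982 for each in edgeR's quasi-likelihood test.

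Among the other cytosolic chaperones, single genes passed the unadjusted threshold. Hspa4l, an HSP110 relative, had 33.7, 28.2 and 47.7 CPM in LT 1 to 3 and 59.9, 45.3 and 75.5 CPM in Fpn-LKO 1 to 3, an order of mice close to that of Hsph1. Hspb8, the small heat shock protein that works with BAG3 in selective autophagy, had 140.04, 155 and 144 CPM in LT 1 to 3 and 201, 172 and 215 CPM in Fpn-LKO 1 to 3. The J-domain genes Dnajb2 and Dnaja4 had log2 fold changes of 0.28 (standard error 0.11) and 1.15 (standard error 0.48), the latter with 1.52 CPM or less in LT. All 4 were named for being under an unadjusted p of 0.05, and were higher in Fpn-LKO with an adjusted p of 0.982 in edgeR's quasi-likelihood test. They were 1 of 7 HSP70 and HSP110 genes, 2 of 11 J-domain genes and 1 of 3 small heat shock protein genes tested, beside 2.62% of all genes tested. Bag3, itself a known HSF1 target, had a log2 fold change of 0.013 (standard error 0.33). None of the 6 other heat shock factors and regulators, none of the 12 exchange factors and quality control genes and none of the 8 TRiC chaperonin genes had an unadjusted p under 0.05. The share of all genes tested was 4.8%, and at that share lists this short can hold none.

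In mitochondria, none of the 10 other chaperones and proteases had an unadjusted p under 0.05, beside 4.8% of all genes tested. Hspa9 (mortalin), the mitochondrial HSP70 that draws proteins in through the inner membrane, had 515, 484 and 499.6 CPM in LT 1 to 3 and 459, 452 and 478 CPM in Fpn-LKO 1 to 3. The groups did not overlap, with Fpn-LKO lower by a narrow margin, and the log2 fold change was -0.11 (standard error 0.12, unadjusted p = 0.379, edgeR's quasi-likelihood test).

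The chaperones of the endoplasmic reticulum (ER), many of which are targets of the unfolded protein response, stood further from 0 than the cytosolic ones. Of 15 ER genes, 14 had a log2 fold change above 0, with a list median of 0.61. At an unadjusted p under 0.05, 6 were higher, beside 2.62% of all genes tested. Hsp90b1 (GRP94), the ER counterpart of Hsp90aa1, had 566, 608 and 726 CPM in LT 1 to 3 and 951, 1068 and 1126 CPM in Fpn-LKO 1 to 3, a difference of 0.73 on the log2 scale (standard error 0.16) with an adjusted p of 0.649 in edgeR's quasi-likelihood test. The protein disulfide isomerases Pdia3 and Pdia4 had log2 fold changes of 0.61 (standard error 0.13) and 0.64 (standard error 0.15), and Serpinh1 (HSP47), the collagen chaperone, which is itself a known HSF1 target, one of 1.06 (standard error 0.23). Hspa5 (BiP) had 715, 749 and 1154 CPM in LT 1 to 3 and 1735, 1007 and 1861 CPM in Fpn-LKO 1 to 3, so that Fpn-LKO 2 lay below LT 3. Hsp90b1 and Hsp90aa1 thus had log2 fold changes of the same size, but the ER gene had the smaller error and did not share the low value of Fpn-LKO 2. DESeq2's Wald test called these 4 ER genes (Hsp90b1, Pdia3, Pdia4 and Serpinh1) after adjustment, among 72 genes of 17274, and edgeR's exactTest called Serpinh1, among 63. Neither called any of the 10 cytosolic and mitochondrial heat shock genes. Whether the ER genes and the 10 differ from each other was not tested.

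**Figure D5:**
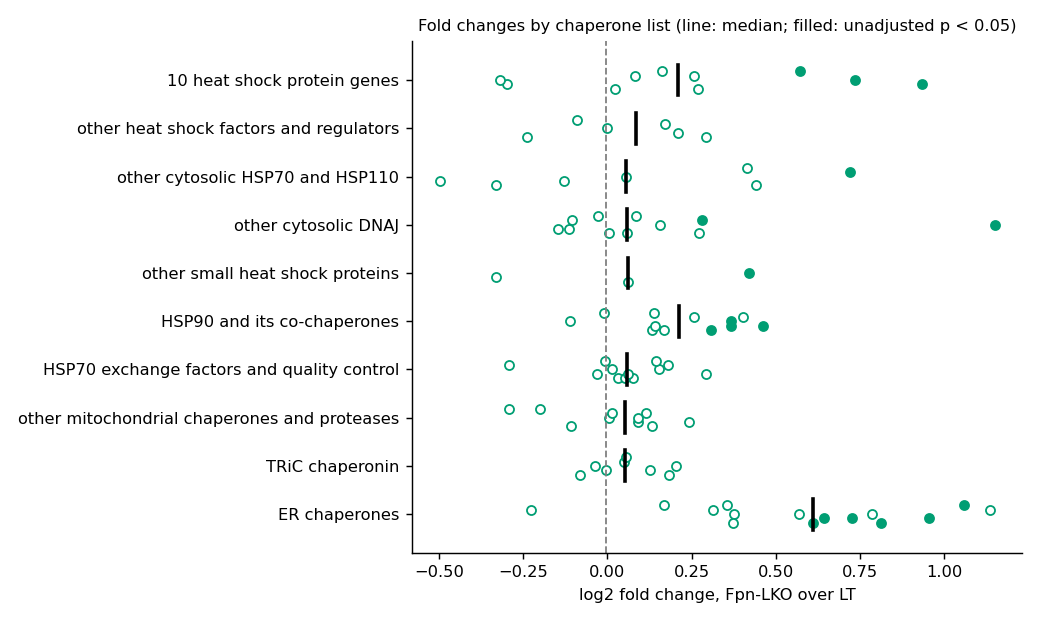
Log2 fold changes, Fpn-LKO over LT, of the tested genes in the list of 10 and in 9 lists of partner chaperones; black lines are list medians, filled points have an unadjusted p under 0.05, and the dashed line is the median of all genes tested (-0.004). The list of 10 has a median of 0.21, the same as HSP90 and its co-chaperones, and ER chaperones have a median of 0.61.

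Other stress-linked genes were read beside the chaperones. Of the immediate-early genes, which rise within minutes of a stimulus, 18 of 20 were tested, with a list median of 0.54. At an unadjusted p under 0.05, 4 were higher (Jund, Atf3, Btg2 and Dusp1), beside 2.62% of all genes tested. Jund, an AP-1 subunit, had 14.3, 14.6 and 14.3 CPM in LT 1 to 3 and 26.2, 20.2 and 20.3 CPM in Fpn-LKO 1 to 3, with an adjusted p of 0.649 in edgeR's quasi-likelihood test. Atf3, a stress-induced transcription factor, had 0.663, 0.600 and 1.52 CPM in LT 1 to 3 and 4.68, 1.20 and 3.64 CPM in Fpn-LKO 1 to 3. Cirbp, an RNA-binding protein that rises in the cold and falls with heat, had 6.17, 12.1 and 6.24 CPM in LT 1 to 3 and 6.25, 2.76 and 3.94 CPM in Fpn-LKO 1 to 3, a log2 fold change of -0.92 (standard error 0.38, unadjusted p = 0.0434, edgeR's quasi-likelihood test). Neither of these orders was that of Hspa1b, which was highest in LT 3 and lowest in Fpn-LKO 3.

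The genes whose pattern over the 6 libraries was most like the average of the 10 were Prdx2, Pitrm1, Ahsa2, Dnaja1 and Pycrl, among 6870 genes of at least 10 CPM. Their Pearson's r with the mean standardised log2 CPM of the 10 genes lay between 0.974 and 0.993 over 6 libraries, and they were picked for it. Dnaja1, an HSP40 of the cytosol, had 269, 259 and 324 CPM in LT 1 to 3 and 356, 325 and 349 CPM in Fpn-LKO 1 to 3. Ahsa2, a relative of the HSP90 activator Ahsa1, had 44.0, 34.5 and 50.4 CPM in LT 1 to 3 and 63.1, 46.1 and 61.4 CPM in Fpn-LKO 1 to 3. This averaged order placed Fpn-LKO 1 and 3 at the top and LT 2 at the bottom.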

How the data were processed

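Liver RNA of 3 LT and 3 Fpn-LKO mice was sequenced as paired reads of 100 bases. The labels name a stranded mRNA kit, whereas the study's methods describe total RNA with removal of ribosomal RNA. Per the labels' processing notes, the tools included HISAT2 2.1.0, Bowtie2 2.3.4.1 and StringTie 2.1.3b, with build mm10. The authors deposited read counts per gene without normalization. They also deposited FPKM (scaled to length and depth) and TPM (of equal total in all libraries).

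The main test was the quasi-likelihood test of edgeR 4.0.16 (R 4.3.3) on the unchanged counts after TMM scaling, for genes with at most 1 library at 0 reads, with p-values adjusted by Benjamini-Hochberg across 17274 genes (threshold 0.05). Standard errors were the log2 fold change over the root of F. CPM are counts over the TMM-scaled library size. FPKM were used for levels between genes only. Samples were grouped by genotype in the labels, which give all 6 the same batch. No pair of libraries of the same genotype agreed within sampling noise, and pairs across genotypes were not compared in this way. The labels do not say whether the mice came from separate litters.

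Alternatives were RLE factors, DESeq2 1.42.0 without independent filtering, edgeR's exactTest, no filter, filterByExpr, limma 3.58.1 on log2 TPM with a pseudocount of 1 or 0.1 (mean TPM of 1 or more), a block for the replicate number, leaving out 5 RNAs without a poly(A) tail, Hspa1a and Hspa1b summed, each mouse left out, and, chosen after seeing the data, near-identical pseudogenes added. Such copies were found with BLAST 2.17.0 in GENCODE M21 transcripts (at least 90% identity over 100 bases). The quasi-likelihood test with and without the block, exactTest, DESeq2 and limma with a pseudocount of 1 were tried on simulated data. The simulation used 1 dispersion for all genes. The other settings and the permutation test were not tried in this way.

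The 10 genes and all lists were chosen with earlier results of these data known. Named were the 10 genes, Slc40a1, Hspa9, Hsp90ab1, Hspa5, Bag3, per list up to 4 genes with the lowest unadjusted p under 0.05 and at least 1 CPM, and the 5 most alike genes. Pseudogenes were named after their values were seen.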

Additional observations from a re-analysis of the deposited data

How the results depend on the processing

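None of the 10 genes had an adjusted p under 0.05 in any of the 18 fits (the lowest was 0.216, for Hsp90aa1 with DESeq2), and with all mice kept no fold change of the 10 turned its direction. The count under an unadjusted p of 0.05 was 3, between 1 and 3 when 1 mouse was left out, and 2 with the replicate block. The count of genes whose groups did not overlap was 3, and 3 to 5 when 1 mouse was left out. On TPM the count was also 3, but with Hsph1 in place of Hspa8. Of the 9 lists of partners, DESeq2 called 4 genes and exactTest 1, against 0. Over all genes, 4 were called, but 72 by DESeq2, 63 by exactTest, 7 with either pseudocount in limma, 0 with the replicate block and 0 to 6 when 1 mouse was left out. Unadjusted, 635 to 967 genes were under 0.05 when 1 mouse was left out, against 830. When 1 mouse was left out, the log2 fold change reversed for Hspa1a (-1.68 to 0.94), Hspa1b (-1.44 to 0.69), Dnajb1 (-0.37 to 0.47) and Hspd1 (-0.032 to 0.17). The causes were not tested. On the TPM scale 77.1% of genes with an unadjusted p under 0.05 were higher, against 54.5% in the count fit. The replicate numbers are carried by different mice. The deviations of same-numbered mice correlated at 0.222, 0.00121 and 0.107 for numbers 1 to 3, and those of differently numbered mice at -0.171 to 0.0834. LT 1 and LT 3 correlated best with the Fpn-LKO library of their own number, whereas LT 2 correlated best with Fpn-LKO 3 (0.0509). Whether the numbers pair the samples was not tested.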
